A study of Homo sapiens with 4 samples.

Results

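The Kruppel-like factors (KLFs) are a family of zinc-finger transcription factors, and 10 of them (KLF2, KLF3, KLF4, KLF5, KLF6, KLF7, KLF9, KLF10, KLF11 and KLF13) were followed in the human ovarian cancer cell line ES2 after treatment with EC359, a small-molecule inhibitor of the leukemia inhibitory factor receptor (LIFR). The members were taken by gene symbol from the 23228 symbols counted in each library, and all 10 had enough counts to be among the 12706 genes tested. KLF2 was included because the study displays it among ferroptosis inducing genes in a heatmap of these same libraries, so its direction is a description and not independent evidence. ES2 cells were grown in RPMI with serum and received either EC359 at 10 nM or the vehicle alone (0.1% DMSO) for 12 h, with 2 libraries for each treatment that the study describes as biologically independent. All 4 libraries came from the 1 cell line. In such bulk samples, fewer cells with a transcript and less of it per cell cannot be told apart. The comparison asks how the transcript levels of these factors differed between EC359 and vehicle.

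KLF proteins bind GC-rich and CACCC-type elements through a conserved tandem array of zinc fingers at the carboxyl end, and differ in the amino-terminal part that recruits partner proteins. KLF2, KLF4, KLF5, KLF6 and KLF7 are grouped as activators that bind acetyltransferases, KLF3 is a repressor that binds the CtBP corepressors, and KLF9, KLF10, KLF11 and KLF13 are repressors that bind SIN3A. In mouse embryonic stem cells, leukemia inhibitory factor maintains Klf4 through STAT3, which makes the family of interest where LIFR is blocked. Several members (KLF2, KLF4, KLF6 and KLF10) are also known to respond within hours to growth factors, stress or TGF-beta.

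Because the zinc-finger region is conserved, it was examined whether reads of 50 bases could tell the members apart. Among the 45 pairs of members, the most similar 50-base windows of their transcripts differed at 4 to 17 positions (median 10), and no window was shared exactly between members. In 44 of the 45 pairs the most similar window lay in coding sequence. The closest pair was KLF6 and KLF7, whose windows differed at 4 positions, and KLF2 and KLF4 differed at 5. These windows are shown because they mark where the family is hardest to separate, with the differing bases in capitals and the transcript strand given 5′ to 3′. In GRCh37, the assembly that UCSC names hg19, the KLF6 window runs from exon 3 (chr10:3822298-3822309, minus strand) into exon 4 (chr10:3821745-3821782). The KLF7 window runs from exon 3 (chr2:207953182-207953193, minus strand) into exon 4 (chr2:207945951-207945988). The KLF2 window lies in exon 2 (chr19:16436777-16436826, plus strand) and the KLF4 window in exon 4 (chr9:110249326-110249375, minus strand).
KLF6: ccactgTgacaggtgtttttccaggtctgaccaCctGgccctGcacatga
KLF7: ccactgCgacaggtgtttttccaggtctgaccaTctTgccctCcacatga
KLF2: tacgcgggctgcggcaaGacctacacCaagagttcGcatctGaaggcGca
KLF4: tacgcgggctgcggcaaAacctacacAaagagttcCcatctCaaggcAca

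Depth and cell identity were checked on all libraries. Reads counted on genes totalled from 25572494 to 31707553 per library, and both EC359 libraries were deeper than both vehicle libraries. Of the epithelial and ovarian carcinoma markers examined, KRT18 and KRT8 were well counted (at least 6304 and 556 counts per library), WT1 had 76 to 119 counts and PAX8 24 to 41, KRT19 had 5 to 23, and EPCAM, CDH1 and MUC16 had at most 2 counts in any library. The mesenchymal marker VIM had at least 135855 counts. KLF2 and KLF4 are abundant in endothelial cells and KLF2 in leukocytes. The leukocyte marker PTPRC had at most 1 count and the endothelial marker PECAM1 at most 2, whereas CD68 (2296 to 2914 counts) and CDH5 (3118 to 3920 counts) were counted in every library. Between treatments, the log2 fold change was -0.046 for CD68 and -0.031 for CDH5, and -0.17 for VIM (edgeR adjusted p = 0.617, 0.736 and 0.0135).

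Levels were compared between genes as RPKM, that is, counts divided by the length of the reference transcript and by the scaled size of the library. With vehicle, KLF6 had the highest level (41.3 ± 0.889 RPKM; SD, n = 2, as for every group value here) and stood above 83.4% of the 12185 tested genes with a known transcript length. KLF10 followed with 24.3 ± 0.412 RPKM and KLF3 with 18.9 ± 0.189 RPKM. With EC359 the levels of these genes were 42.3 ± 0.743, 23.4 ± 0.703 and 17.0 ± 0.0746 RPKM. The 3 genes took from 86.2% to 87.6% of all counts on the members in each library. KLF2 had an intermediate level of 5.92 ± 0.252 RPKM, and KLF4 had 2.37 ± 0.0265 RPKM. The remaining members were at low levels: KLF7 had 1.56 ± 0.0720, KLF5 1.22 ± 0.184, KLF9 1.14 ± 0.117, KLF11 0.615 ± 0.0281 and KLF13 0.441 ± 0.0200 RPKM. The highest level was 93.7 times the lowest. The order of the 10 genes was identical with EC359, and over the 4 libraries KLF5 and KLF9 were the only neighbours in that order whose ranges overlapped. The order depends on the 1 reference transcript length used per gene. In raw counts with vehicle, KLF3 (2708 and 2667) exceeded KLF10 (1777 and 1818). KLF7 likewise exceeded KLF4, KLF9 exceeded KLF5 and KLF13 exceeded KLF11.

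**Figure D1:**
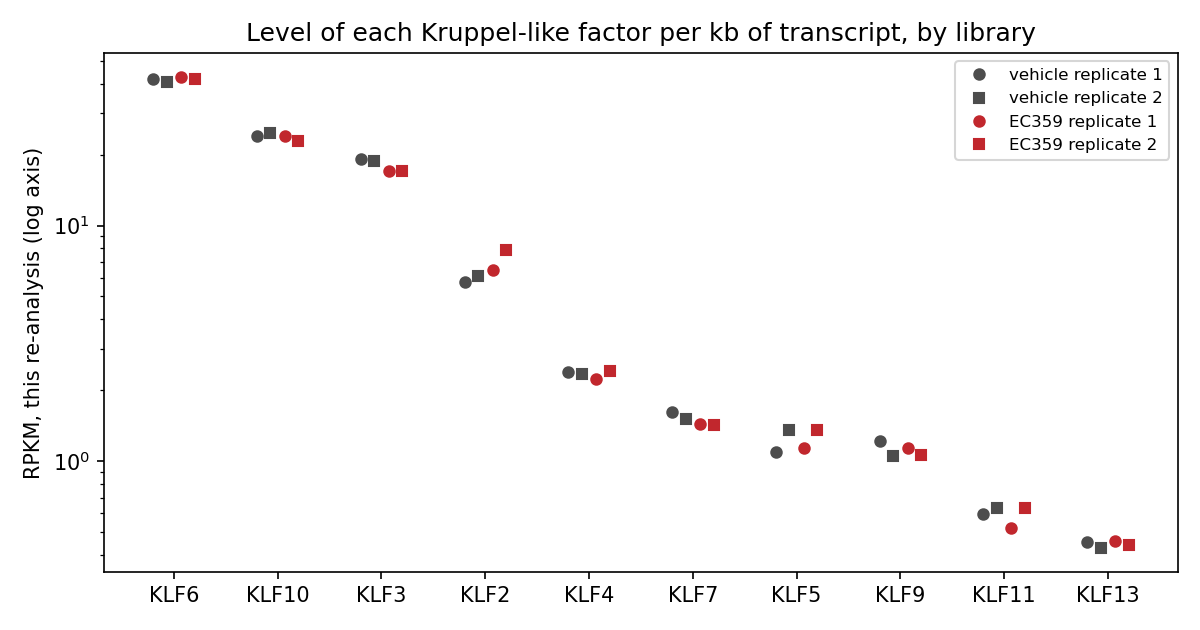
Level of each KLF in every library, in RPKM on a log axis, with vehicle in grey and EC359 in red. Levels run from about 41.3 RPKM for KLF6 to 0.441 RPKM for KLF13 with vehicle, and only KLF5 and KLF9 overlap as neighbours.

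In the comparison of EC359 with vehicle, edgeR's quasi-likelihood test gave 0 of the 10 members an adjusted p (Benjamini-Hochberg) under 0.01, where 1.09% of all tested genes passed. At an adjusted p under 0.05 the count was also 0, against 4.32% of all tested genes. At an unadjusted p under 0.05, 1 member was higher (KLF2) and 1 was lower (KLF3), where 10.7% of all tested genes passed upward and 11% downward. DESeq2 gave an adjusted p to only 4 of the 10 members. Of these, 0 passed 0.01, where 230 of all 8025 genes with a DESeq2 adjusted p did. Both EC359 libraries lay above both vehicle libraries for 1 member (KLF2), against 26.1% of all tested genes, and below them for 3 (KLF3, KLF7 and KLF10), against 25.4%. The median log2 fold change was -0.043 over the members and 0.0029 over all tested genes, with 4 members above 0 and 6 below. The log2 fold changes ran from -0.15 (KLF3) to 0.28 (KLF2). The precision differed with the level: the 95% interval of the log2 fold change reached 0.08 to either side of the estimate for KLF6 and 0.43 for KLF11, which had the lowest counts (61 to 77 per library). Missing the threshold therefore leaves room for changes of the size of these intervals.

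**Figure D2:**
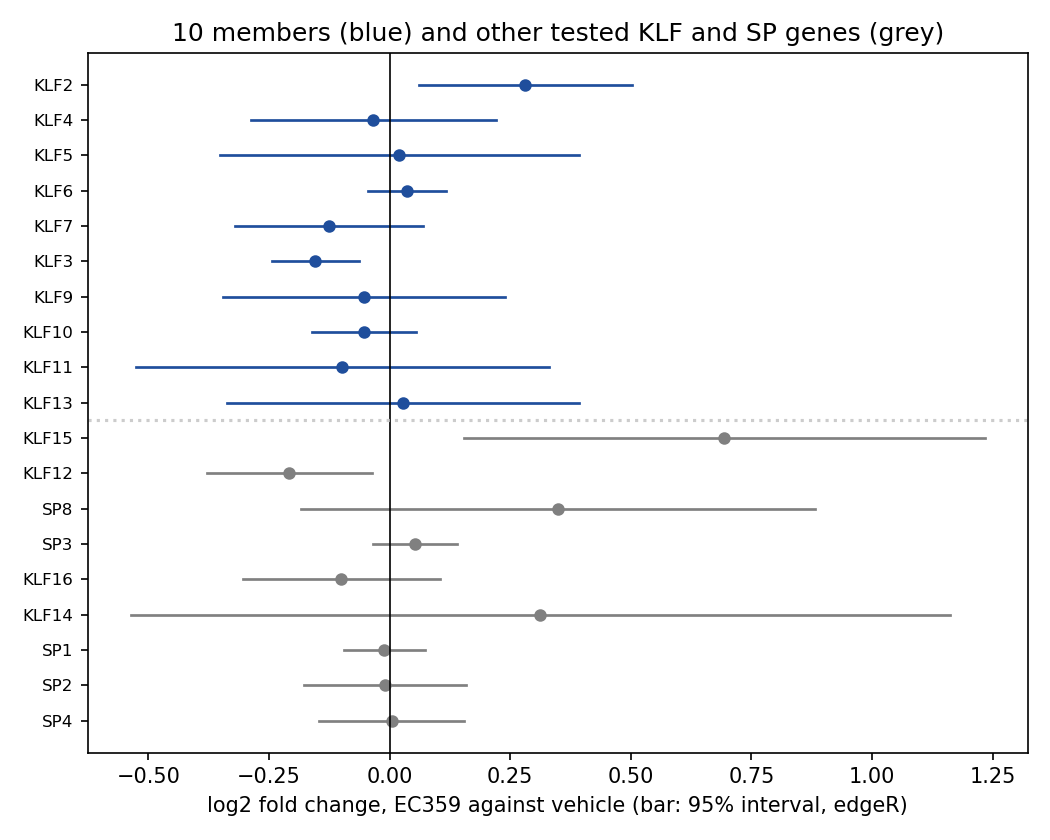
Log2 fold change of EC359 against vehicle with its 95% interval from edgeR, for the 10 members in blue and the 9 other tested KLF and SP genes in grey. The intervals of KLF2, KLF3, KLF15 and KLF12 do not include 0, and that of KLF6 is the narrowest among the members.

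Among the activators, KLF2, which maintains quiescence in endothelial cells and T cells, had the largest difference. In counts scaled to the mean library size (normalized counts), KLF2 had 457 and 485 with vehicle, and with EC359 it had 517 in replicate 1 and 628 in replicate 2. All EC359 values lay above all vehicle values, but the EC359 libraries lay further from each other than replicate 1 lay from vehicle. The means were 471 ± 20.0 with vehicle and 573 ± 78.5 with EC359, a log2 fold change of 0.28 (standard error 0.099, 95% interval 0.060 to 0.50, edgeR adjusted p = 0.136). Without EC359 replicate 2 the log2 fold change was 0.14 and without EC359 replicate 1 it was 0.42. Its share of all counts on the members was 3.84% and 4.14% with vehicle and 4.44% and 5.42% with EC359. KLF2 lies on chromosome 19 of GRCh37 from 16435637 to 16439496 on the plus strand, in 3 exons, and overlaps no other annotated gene.

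KLF6, an early response gene that is often described as a tumor suppressor, was the most precisely measured member. It had 5429 and 5266 normalized counts with vehicle and 5551 and 5415 with EC359, so the groups overlapped. The log2 fold change was 0.036 (standard error 0.036, 95% interval -0.044 to 0.12, edgeR adjusted p = 0.612). KLF4, a reprogramming factor and the member tied most closely to LIF signaling in stem cells, had 198 and 195 normalized counts with vehicle and 185 and 199 with EC359. These values also overlapped, with a log2 fold change of -0.034 and a 95% interval from -0.29 to 0.22 (edgeR adjusted p = 0.905). KLF5, which promotes proliferation of epithelial progenitors, had 103 and 128 normalized counts with vehicle and 107 and 128 with EC359. Its replicates differed more than its treatments (log2 fold change 0.020, 95% interval -0.35 to 0.39, edgeR adjusted p = 0.966).

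KLF7, a regulator of neuronal outgrowth, had 381 and 357 normalized counts with vehicle and 341 and 336 with EC359. Both EC359 libraries were below both vehicle libraries, but the log2 fold change of -0.13 had a 95% interval from -0.32 to 0.069 (edgeR adjusted p = 0.443). KLF6 lies on chromosome 10 from 3818188 to 3827473 (minus strand, 4 exons), KLF4 on chromosome 9 from 110247133 to 110252763 (minus strand, 5 exons), KLF5 on chromosome 13 from 73629114 to 73651679 (plus strand, 4 exons) and KLF7 on chromosome 2 from 207938861 to 208038580 (minus strand, 4 exons). KLF4 shares 6.30% of its 50-base windows with an antisense noncoding RNA, and KLF7 shares 0.192% with its pseudogene KLF7P1.

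KLF3, the CtBP-binding repressor of the set, which is known to oppose activation by other KLFs at shared sites, had the lowest p of the members. It had 3010 and 2968 normalized counts with vehicle and 2677 and 2694 with EC359. Both EC359 libraries were lower, and the gap between treatments was larger than that between replicates. The means were 2989 ± 29.8 and 2686 ± 11.8, a difference of -10.1% and a log2 fold change of -0.15 (standard error 0.041, 95% interval -0.24 to -0.064, edgeR adjusted p = 0.0603), and KLF3 was therefore not called at 0.01 or 0.05. With each library's trend against transcript GC content removed, KLF3 had a log2 fold change of -0.18 and an adjusted p of 0.00153, in a fit that called 8.14% of all tested genes and 1 of the 10 members. The KLF3 transcript has a GC content of 41.1% and that of KLF2 61.2%. Genes with a GC content from 40% to 45% had a median log2 fold change of 0.013, and genes above 60% had 0.049. In the same fit with the GC trend removed, KLF2 had a log2 fold change of 0.26 (edgeR adjusted p = 0.0304) and was not called at 0.01. KLF3 lies on chromosome 4 of GRCh37 from 38665818 to 38703138 on the plus strand, in 6 exons. The share of KLF3 in all counts on the members was 25.3% in both vehicle libraries and 23.0% and 23.2% with EC359. The gene shares 3.88% of its 50-base windows with the antisense RNA KLF3-AS1, whose symbol is not in the tables used here. The libraries were made with a stranded kit, but the strand setting of the counting is not stated, and without it reads of both cannot be told apart.

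**Figure D3:**
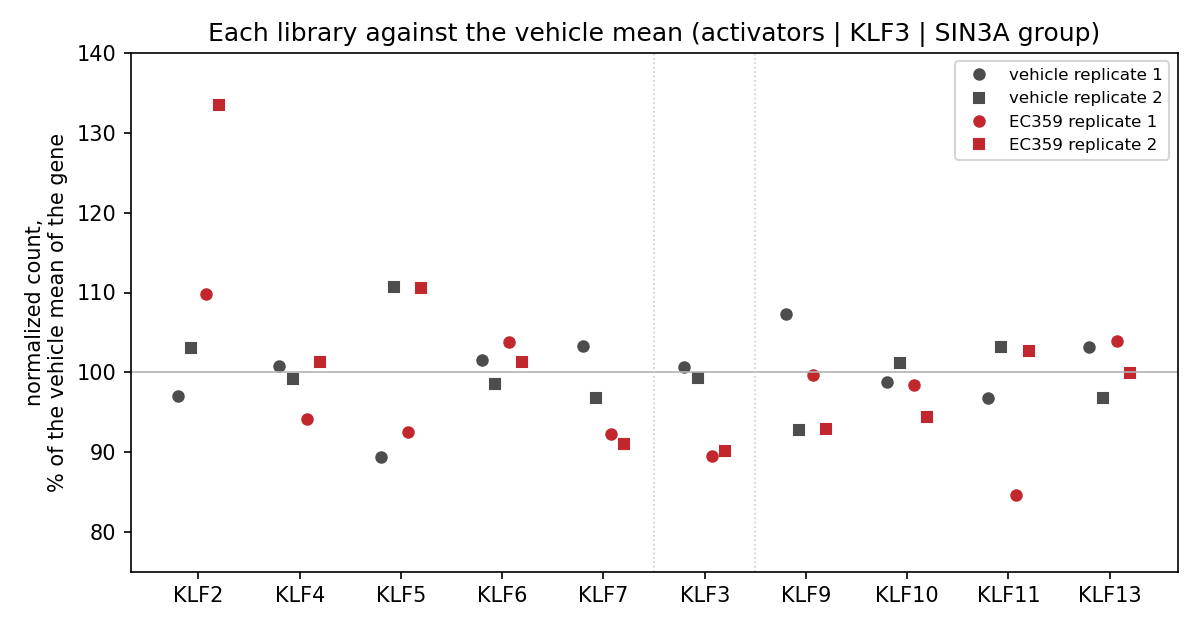
Normalized count of each member in every library as a percentage of the gene's vehicle mean, with vehicle in grey, EC359 in red and dotted lines between the activators, KLF3 and the SIN3A-binding group. KLF2 in EC359 replicate 2 stands at 133% and in replicate 1 at 110%, and KLF3 stands at 89.6% and 90.1%, while the points of KLF4, KLF5, KLF6, KLF9, KLF11 and KLF13 overlap between treatments.

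In the SIN3A-binding group, 0 of 4 members passed an unadjusted p under 0.05, where 10.7% of all tested genes passed upward and 11% downward. The median log2 fold change of the group was -0.053. KLF10, an early target of TGF-beta signaling, had 1975 and 2023 normalized counts with vehicle and 1968 and 1886 with EC359. The EC359 values were just below the vehicle values (log2 fold change -0.053, 95% interval -0.16 to 0.055, edgeR adjusted p = 0.575). KLF9, which is induced by glucocorticoid and thyroid hormone receptors, had 179 and 155 normalized counts with vehicle and 166 and 155 with EC359, and the groups overlapped (log2 fold change -0.054, edgeR adjusted p = 0.859).

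KLF11, the closest relative of KLF10, had 67.8 and 72.3 normalized counts with vehicle and 59.3 and 71.9 with EC359, with a log2 fold change of -0.098 and a 95% interval from -0.53 to 0.33 (edgeR adjusted p = 0.819). KLF13, known for its control of CCL5 in T cells, had 87.8 and 82.3 with vehicle and 88.4 and 85.0 with EC359 (log2 fold change 0.028, 95% interval -0.34 to 0.39, edgeR adjusted p = 0.949). Both genes overlapped between treatments. With 2 libraries for each treatment at 61 to 100 counts per library, the data leave room for changes anywhere inside these intervals. KLF9 lies on chromosome 9 from 72999520 to 73029573 (minus strand, 2 exons), KLF11 on chromosome 2 from 10182976 to 10194963 (plus strand, 4 exons), KLF13 on chromosome 15 from 31619038 to 31727868 (plus strand, 2 exons) and KLF10 on chromosome 8 from 103661012 to 103667953 (minus strand, 4 exons), all in GRCh37. KLF11 shares 9.21% of its 50-base windows with an antisense noncoding RNA.

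The wider family was covered by a list of 17 further KLF and SP genes, of which 9 were tested and 0 were called at 0.01 or 0.05. At an unadjusted p under 0.05, 1 was higher and 1 was lower, shares close to the 10.7% and 11% of all tested genes. KLF15, a regulator of gluconeogenesis and amino acid breakdown, had 30.0 and 42.3 normalized counts with vehicle and 63.7 and 53.2 with EC359. The groups did not overlap, and the log2 fold change of 0.69 was larger than that of any of the 10 members, with a 95% interval from 0.15 to 1.23 (edgeR adjusted p = 0.133). These values rest on 27 to 72 counts per library. KLF12, which like KLF3 binds CtBP, had 505 and 513 normalized counts with vehicle and 451 and 430 with EC359 (log2 fold change -0.21, edgeR adjusted p = 0.154). SP8, a developmental factor, had 31.1 and 32.3 with vehicle and 41.6 and 39.2 with EC359 (log2 fold change 0.35, 95% interval -0.18 to 0.88, edgeR adjusted p = 0.435). KLF16, named after its values were seen, had 1327 and 1520 with vehicle and 1201 and 1458 with EC359, which overlapped (log2 fold change -0.10, edgeR adjusted p = 0.574). It was the 1 gene of the list called with the GC trend removed (log2 fold change -0.25, adjusted p = 0.00221), in the fit that called 8.14% of all tested genes, and its transcript has a GC content of 67.8%. KLF1, the erythroid factor, and KLF8 had 0 counts in every library, which allows up to 3 counts per library.

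Partner proteins, inducing pathways and reported targets of the KLFs were also examined, each with its own list. Of 12 tested partners, 0 were called at 0.01, 1 was lower at an unadjusted p under 0.05 (11% of all tested genes), and the median log2 fold change was -0.024. That gene was SAP30, a subunit of the SIN3A corepressor complex, with 599 and 588 normalized counts with vehicle and 498 and 475 with EC359 (log2 fold change -0.29, 95% interval -0.45 to -0.12, edgeR adjusted p = 0.0572). CTBP2, the corepressor of KLF3, and EP300, the acetyltransferase p300, had log2 fold changes of -0.093 and -0.081 (edgeR adjusted p = 0.319 and 0.322).

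Of 20 tested genes of inducing pathways, 0 were called at 0.01 and 1 passed 0.05, a share near the 4.32% of all tested genes. At an unadjusted p under 0.05, 3 were higher and 2 were lower, where 10.7% of all tested genes passed upward and 11% downward. The median log2 fold change was 0.0050. The gene that passed 0.05 was IL6ST, which encodes the gp130 subunit that pairs with LIFR. It had 6566 and 6380 normalized counts with vehicle and 7379 and 7240 with EC359, without overlap (log2 fold change 0.18, standard error 0.034, edgeR adjusted p = 0.0203), and it was called with the GC trend removed (log2 fold change 0.13, adjusted p = 0.00150). MEF2A, a factor that carries ERK5 signals to KLF2 and KLF4, had a log2 fold change of 0.17 (edgeR adjusted p = 0.0745). TGFB1, which the study also displays in the heatmap of these libraries, had 0.26 (edgeR adjusted p = 0.103). The 2 lower genes, named after their values were seen, were SRF, which drives serum response genes, and LIF, the ligand of LIFR, with log2 fold changes of -0.14 and -0.090 (edgeR adjusted p = 0.120 and 0.230). Genes between LIFR and KLF4 were named in the same way: the log2 fold changes were 0.062 for LIFR, 0.0034 for STAT3 and -0.049 for the STAT3 target SOCS3 (edgeR adjusted p = 0.555, 0.981 and 0.646).

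Of the 12 listed target genes, 9 were tested, 0 were called at 0.01 and 1 passed 0.05, where 4.32% of all tested genes did. ENG, the TGF-beta coreceptor endoglin that KLF6 is reported to activate, had 8035 and 8571 normalized counts with vehicle and 9281 and 9485 with EC359 (log2 fold change 0.18, standard error 0.038, edgeR adjusted p = 0.0295). PLAU, which encodes urokinase, had 27128 and 27090 with vehicle and 28847 and 29388 with EC359 (log2 fold change 0.10, edgeR adjusted p = 0.0703). With the GC trend removed, a fit that called 8.14% of all tested genes, ENG and PLAU were called (adjusted p = 0.00510 and 0.000314, log2 fold changes 0.13 and 0.12). The median log2 fold change of the 9 tested targets was -0.015. The endothelial targets of KLF2 were named after their values were seen: THBD had 2 and 0 counts with vehicle and 6 and 7 with EC359 and was not tested, NOS3 had a log2 fold change of -0.11 with overlapping groups, and S1PR1 had -0.20 with both EC359 libraries lower (95% interval -0.48 to 0.079, edgeR adjusted p = 0.393).

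The estimates for KLF2 and KLF3, the members with an unadjusted p under 0.05, were recomputed with other normalizations, tests and filters, with the GC trend removed and with each library left out. Fits with the replicate number as a block called both genes, among 1539 of 12706 tested genes, or 1993 with the GC trend also removed. They are described with the other processing choices. In the fits without a block, the log2 fold change of KLF2 ranged from 0.14 to 0.42. That of KLF3 ranged from -0.18 (GC trend removed) to -0.13. Both genes were picked by their p in these libraries, and the treatments did not overlap for either. Leaving out 1 library therefore could not turn their direction, and the other fits used the same counts. The constant direction is thus not further evidence of a change.

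**Figure D4:**
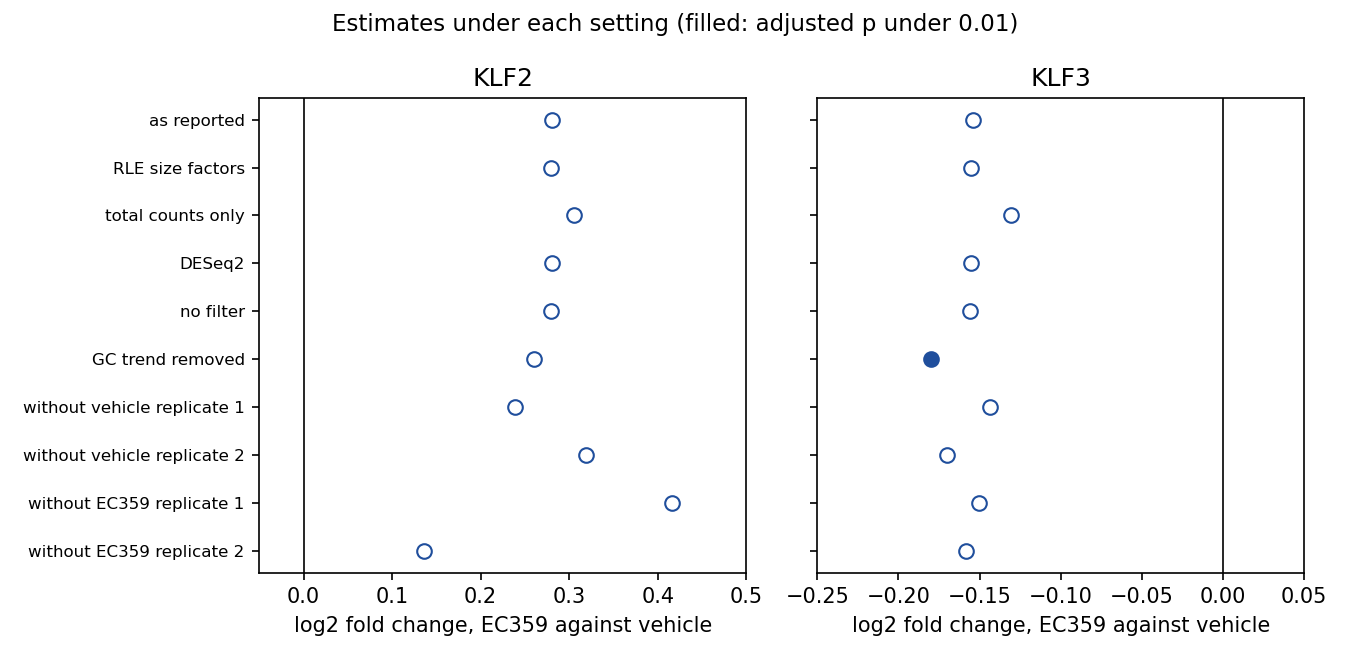
Log2 fold change of EC359 against vehicle for KLF2 (left) and KLF3 (right) under other normalizations, tests and filters, with the GC trend removed and with each library left out, with filled points where the adjusted p was under 0.01. Fits with a replicate block are not drawn. KLF2 spans 0.14 to 0.42 and KLF3 spans -0.18 to -0.13, and the filled point among those drawn is KLF3 with the GC trend removed.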

How the data were processed

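RNA from 4 cultures of ES2 cells was sequenced as 50-base single-end reads. The authors used CASAVA 1.8.2, aligned reads to UCSC hg19 with TopHat2 2.0.8b, annotated genes with NCBI RefSeq and deposited raw counts per gene symbol from HTSeq, without normalization. The strand setting is not given in the sources used here. Rows that name no gene (no feature, 10.9% to 12.0% of uniquely aligned reads; ambiguous, 0.852% to 0.879%) were left out.

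Low genes were removed by filterByExpr (edgeR 4.0.16, minimum count 10, minimum total 15). Libraries were scaled with TMM factors and genes tested with the quasi-likelihood test in R 4.3.3 at an adjusted p under 0.01, as in the study's threshold. The edgeR fit, the DESeq2 fit and the edgeR fit with the GC trend removed were also run on simulated data. Fits with a replicate block were not. Lengths, GC content (95.9% of tested genes) and places came from GENCODE lifted to GRCh37. Alternatives were RLE factors, total counts, DESeq2 1.42.0, no filter, another threshold, a replicate block, removal of the GC trend (loess span 0.3) and leaving out each library. Text names all members and, from each list, called genes and the 3 with the lowest adjusted p, except that 1 target and 1 marker are not reported here. Members and lists were chosen with earlier results of these data known. Replicates differed by more than sampling noise (chi-square per degree of freedom 3.81 and 2.72).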

Additional observations from a re-analysis of the deposited data

How the results depend on the processing

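The number of genes called at 0.01 was 139 of 12706, against 230 of 8025 with DESeq2 and 61 of 16620 without a filter. An adjusted p under 0.05 gave 549 of 12706, and removal of the GC trend gave 1034 of 12706. Leaving out 1 library gave from 0 (without EC359 replicate 1) to 539 (without vehicle replicate 2), with 2 without EC359 replicate 2 and 390 without vehicle replicate 1. The members called were 0 in these fits except with the GC trend removed, which called 1 (KLF3). Of the lists, the GC fit called 1 other KLF or SP gene, 1 inducing pathway gene and 2 targets, and the threshold of 0.05 called 1 inducing pathway gene and 1 target. Leaving out 1 library gave 0 to 1 inducing pathway genes and 0 to 1 targets. The median of the members ran from -0.054 to 0.0078 when 1 library was left out, and was above 0 without EC359 replicate 1. Of 120 values of single members under alternatives, 108 were counted as keeping direction and side of the threshold, but some could not change. Those at the threshold of 0.05 were the main estimates, whose direction could not turn. Members without a DESeq2 adjusted p were counted as keeping their side, although it was not tested. The 108 is therefore not a measure of how stable the estimates were. Of the remaining values, 5 passed the threshold, and 7 turned direction, each with 1 library left out. KLF4 ran from -0.086 to 0.019, KLF5 from -0.12 to 0.18 and KLF9 from -0.16 to 0.056. KLF11 ran from -0.24 to 0.037 and KLF13 from -0.023 to 0.076. The cause of these changes was not tested.

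Same-numbered libraries share a number that no label ties to a batch (correlation of deviations across genes 0.11, from 2 pairs). A replicate block called 1539 of 12706 tested genes and 2 of the 10 members (KLF2, edgeR adjusted p = 0.00784, and KLF3, edgeR adjusted p = 0.00173). It also called 1 of 12 partners, 4 of 20 inducing pathway genes and 2 of 9 targets. For 4 libraries, the block leaves 1 residual degree of freedom per gene. The spread behind its adjusted p-values is thus hardly measured within single genes. With the block and the GC trend removed, 1993 of 12706 genes and 2 of 10 members were called. The lists gave 1 of 9 other KLF or SP genes and 1 of 12 partners. For inducing pathways and targets the numbers were 3 of 20 and 2 of 9. KLF11 had the lowest counts of the members (61 to 77) and the widest interval.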
